A study of Mus musculus with 6 samples.

Results

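The genes described here are 8 members of the calcium-dependent pathway that sets muscle fibre type: the transcription factor genes Nfatc1, Nfatc2, Nfatc3 and Nfatc4, the calcineurin catalytic subunit genes Ppp3ca and Ppp3cb, the calcineurin regulator gene Rcan1 and the kinase gene Camk2d. They were chosen by name, as all regions of the deposited H3K9me3 table whose assigned gene symbol is one of the 8. This gave 53 of the table's 202553 regions, and 8 of its 16587 symbols. The samples were quadriceps femoris muscle of Prr14-KO mice (3 libraries, replicates 4, 5 and 7) and of Prr14-WT mice (3 libraries, replicates 3, 4 and 8), frozen at once and profiled by CUT&Tag, an assay that tags DNA beside an antibody-bound mark with a transposase. The antibody was against trimethylated lysine 9 of histone H3 (H3K9me3), a mark of heterochromatin. Age, sex, strain, the deleted part of Prr14 and whether the deletion is limited to muscle are not given in the sources used here. No label says that each library is a separate animal, so the p-values below measure the spread between these libraries, which may be technical. In whole muscle the mark in fibres and in other cells is read together.

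Calcineurin is a phosphatase that is switched on by calcium and calmodulin. It removes phosphates from the NFAT proteins, which then enter the nucleus, and in mouse muscle NFATc1 is known for favouring slow over fast fibre genes. Camk2d encodes the delta chain of CaMKII, a kinase that also reads calcium and acts on class IIa histone deacetylases, the repressors of MEF2 factors. Prr14 is known for tethering heterochromatin to the nuclear lamina through HP1. The study set the gene beside MEF2C and fibre identity, and the comparison here asks whether H3K9me3 at the calcium signalling genes differs without it.

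Library totals ran from 4324444 to 4707466 counts in the Prr14-KO libraries and from 4636898 to 4756133 in the Prr14-WT libraries. Between any 2 libraries the variance was 2.47 to 2.996 times that of counting error, so none was a copy of another. The share of counts in regions within 1 kb of a start site was 7.51%, 7.95% and 8.17% in Prr14-KO replicates 4, 5 and 7, and 7.35%, 7.66% and 8.01% in Prr14-WT replicates 3, 4 and 8. The mitochondrial share was 0.146%, 0.248% and 0.612% in the same Prr14-KO libraries, and 0.174%, 0.189% and 0.366% in the Prr14-WT libraries. Replicate 7 of the Prr14-KO group and replicate 8 of the Prr14-WT group were therefore the highest of their genotype in both shares. The labelled tissue could not be checked by expression, since the assay reads a histone mark. Of 16 muscle fibre marker genes 6 had a region within 1 kb of a start site, and of 11 markers of other cells 2 did. In the whole gene span, 11 of the 16 fibre markers and 9 of the 11 markers of other cells had a region.

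No member gene differed between Prr14-KO and Prr14-WT muscle by the test across all features, at any of 5 levels: single regions, sums per gene, sums per gene and annotation class, sums inside the gene, and bins of 1 Mb. The mark was sparse at these genes. The mean count per library of a region ran from 4.67 to 82.7 over the 53 regions, with a median of 12.3 against 15 over all regions. The differences that did not pass went both ways. Values were higher in Prr14-KO libraries at start-site regions of Nfatc4, Ppp3ca and Ppp3cb and inside the Ppp3ca gene, and lower at an intron region of Nfatc2, an intergenic region of Rcan1 and 2 intergenic regions of Ppp3ca.

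The regions were unevenly spread over the 8 genes. Nfatc2 had 14 regions, Ppp3ca 13, Rcan1 12, Camk2d 8 and Nfatc1 3, while Nfatc3, Nfatc4 and Ppp3cb had 1 each; the median gene of the table has 4. Of the 53, 30 overlapped the RefSeq span of their gene and 23 lay outside it. Introns held 22 of the members' regions (41.5%, against 22.6% of all regions), intergenic sequence 20 (37.7%, against 68.1%), and 5 (9.43%, against 3.80%) lay within 1 kb of a start site. Another 5 were annotated between 1 and 3 kb from a start site, 1 was in a 5′ untranslated exon of Nfatc2, and none was annotated to a coding exon. Regions of these genes were 148 to 1010 bp wide, with a median of 290 bp against 317 bp over all regions.

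Inside the genes the density of the mark ranged from none at Nfatc3 to above most coding genes at Nfatc4. Summed over the RefSeq span and divided by its length, Nfatc4 held 0.460 CPM (counts scaled to 1000000 per library) per kb of gene, above 81.3% of protein-coding genes. Rcan1 (0.256) and Nfatc2 (0.255) followed, above 70.1% and 70.0% of coding genes. Ppp3ca (0.0593), Nfatc1 (0.0412), Ppp3cb (0.0402) and Camk2d (0.0378) lay close to the coding-gene median of 0.0565, and no region overlapped the Nfatc3 span. Of all coding genes, 55.1% had a region in their span, and the others held none there. Ppp3ca, Nfatc1, Ppp3cb and Camk2d therefore stood low among the genes with a region. Their densities were above 47.6% (Camk2d) to 50.4% (Ppp3ca) of all coding genes. The single Nfatc3 region, chr8:106047322-106047937, lies 10881 bp before the gene and inside the RefSeq span of Dus2, so it measures the mark at a neighbour. Likewise a region assigned to an intron of Nfatc2 lies 49673 bp outside that gene and inside Atp9a.

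At the scale of 1 Mb the loci fell into poor and rich surroundings. The bins that hold the start sites of Ppp3ca and Ppp3cb, on chromosomes 3 and 14, carried 122 and 124 CPM as the mean of the 6 libraries, above only 3.56% and 3.73% of 2413 autosomal bins. The Nfatc2 bin on chromosome 2 carried 608 CPM, above 89.3% of bins, and the Rcan1 bin on chromosome 16 carried 499.6 CPM, above 79.0%. Camk2d (210 CPM), Nfatc3 (245), Nfatc4 (269) and Nfatc1 (316) stood between, all under the median of 336. None of these bins passed the test between genotypes, where 0.076% of 2630 bins did. Their log2 changes ran from -0.06 for Rcan1 (488.6 ± 35.3 CPM in Prr14-KO and 510.4 ± 20.4 in Prr14-WT libraries) to 0.11 for Ppp3cb (129 ± 6.68 in Prr14-KO and 119 ± 11.4 in Prr14-WT). For Ppp3cb the 95% interval was -0.12 to 0.35. All SDs in this section are over the 3 libraries of a genotype.

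**Figure D1:**
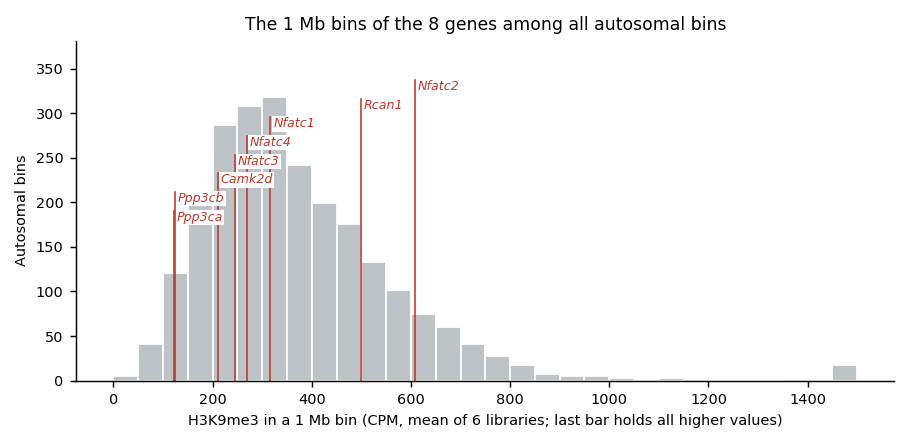
Number of autosomal 1 Mb bins (y axis) by their H3K9me3 level in CPM, the mean of 6 libraries (x axis; the last bar holds all higher values), with a vertical line at the bin that holds the start of each of the 8 genes. Ppp3ca (122 CPM) and Ppp3cb (124 CPM) sit at the low end, and Rcan1 (499.6 CPM) and Nfatc2 (608 CPM) above the median of 336 CPM.

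Start-site windows of 3 members are shown, those whose regions lay on or nearest to a window among those used. They were not picked by the size of a difference, and at the Nfatc2 and Camk2d regions the genotypes overlapped. The Nfatc4 region lay 3230 bases from its window, which is not shown. The windows are from RefSeq (GRCm38.p6), run from 250 bases before to 50 bases after an annotated start, and are written 5′ to 3′ on the gene's strand. RefSeq windows were matched for 6 of the 8 genes, 9 windows in all. Capitals mark the NFAT core GGAAA on either strand. The first is the inner start of Nfatc2, chr2:168590316-168590615 on the minus strand, which a region of the table overlaps by 284 bases, taking its positions as the table gives them. The second is Ppp3cb, chr14:20546524-20546823 on the minus strand, whose region ends 210 bases away, and the third is Camk2d, chr3:126596701-126597000 on the plus strand, whose region starts 209 bases away.

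Nfatc2 inner start: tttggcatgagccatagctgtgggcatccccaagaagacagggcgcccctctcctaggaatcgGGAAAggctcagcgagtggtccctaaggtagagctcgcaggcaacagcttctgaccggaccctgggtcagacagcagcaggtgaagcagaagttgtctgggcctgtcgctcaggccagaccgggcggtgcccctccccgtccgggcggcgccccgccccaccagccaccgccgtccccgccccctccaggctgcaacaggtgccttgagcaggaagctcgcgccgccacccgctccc

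Ppp3cb start: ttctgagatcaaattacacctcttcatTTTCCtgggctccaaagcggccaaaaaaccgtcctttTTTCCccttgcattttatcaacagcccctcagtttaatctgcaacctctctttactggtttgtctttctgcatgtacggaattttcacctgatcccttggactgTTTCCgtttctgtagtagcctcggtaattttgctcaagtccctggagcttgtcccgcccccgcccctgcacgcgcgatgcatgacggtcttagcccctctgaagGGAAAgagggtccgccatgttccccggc

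Camk2d start: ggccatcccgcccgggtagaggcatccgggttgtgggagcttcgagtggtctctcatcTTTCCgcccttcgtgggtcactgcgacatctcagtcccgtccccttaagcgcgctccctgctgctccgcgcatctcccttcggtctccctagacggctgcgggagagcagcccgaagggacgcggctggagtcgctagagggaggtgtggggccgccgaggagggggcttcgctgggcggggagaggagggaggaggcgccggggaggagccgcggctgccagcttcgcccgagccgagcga

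The NFAT core occurred 1 time in the Nfatc2 window, 4 times in the Ppp3cb window and 1 time in the Camk2d window. Of 32851 RefSeq start windows, 61.3% hold it, with a median of 1, so its presence is common. A loose MEF2-like pattern, CTANNNNTAG with any base at N, was read on both strands. It was in 0 of the 9 windows used, which leave out Nfatc1 and Ppp3ca, and is in 3.69% of all windows. The Camk2d window held 31 CpG dinucleotides, more than 89.4% of windows, the Nfatc2 window 20 (73.5%) and the Ppp3cb window 13 (62.1%), against a median of 7. These matches describe the sequence only.

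Per length of marked DNA, the 8 genes kept a similar order in both genotypes except at Nfatc4 and Ppp3cb. Over the regions assigned to each gene, Nfatc3 was highest at 18.3 ± 3.63 CPM per kb of region in Prr14-KO and 15.03 ± 3.13 in Prr14-WT libraries. Its region lies in Dus2, outside Nfatc3. Nfatc2 came next, at 13.3 ± 0.868 in Prr14-KO and 12.9 ± 0.909 in Prr14-WT, with Camk2d at 12.6 ± 3.66 in Prr14-KO and 12.9 ± 2.14 in Prr14-WT. Nfatc1 held 10.5 ± 6.22 in Prr14-KO and 12.2 ± 7.16 in Prr14-WT, Ppp3ca 9.81 ± 0.942 and 9.04 ± 0.969, and Rcan1 8.77 ± 2.14 and 9.73 ± 1.10, each in the same order. In Prr14-WT libraries Nfatc4 (4.67 ± 1.72) and Ppp3cb (3.24 ± 1.64) were lowest, while in Prr14-KO libraries they stood at 10.3 ± 5.70 and 11.2 ± 5.47. In the Prr14-KO order only Nfatc3 and Nfatc2 differed from their neighbour by more than the larger SD of the pair, and in the Prr14-WT order only Ppp3ca and Nfatc4 did. The median region of the whole table held 10.2 CPM per kb.

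Summed over all regions assigned to a gene, 7 of the 8 genes passed the filter on low counts and 0 passed the test, where 0.0393% of 15265 genes did. Only Nfatc4 had an unadjusted p under 0.05 (1 of 7, where 3.58% of all genes had one), and for none of the 7 were all Prr14-KO values on one side of all Prr14-WT values (8.5% over all genes). The log2 changes, Prr14-KO over Prr14-WT, lay between -0.24 and 1.10, their median being 0.02 (0.00 over all genes), and their median standard error was 0.19. On simulated libraries, changes of 1.5-fold were found at 44.8% of altered genes, and changes of 2-fold at 68.7%. The altered genes were drawn from all genes and not matched to the members. The standard errors of Nfatc1 (0.46), Nfatc3 (0.32) and Nfatc4 (0.55) were above the median of 0.22 over all genes, so these rates do not hold for them. CPM are scaled within each level and are not compared between levels.

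**Figure D2:**
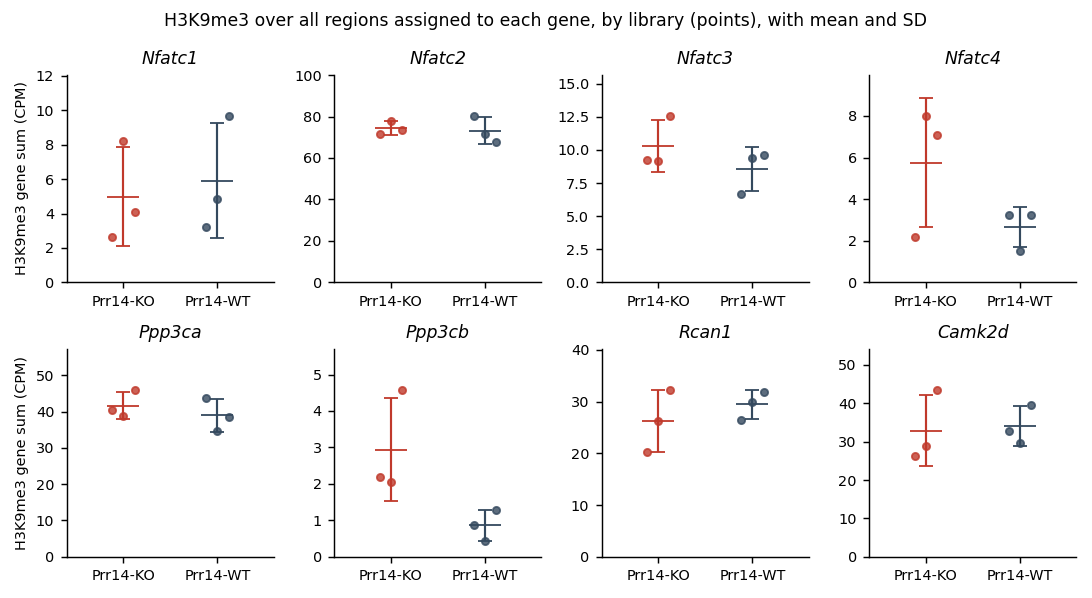
H3K9me3 summed over all regions assigned to each of the 8 genes, in CPM (y axis, from 0), for the 3 Prr14-KO and the 3 Prr14-WT libraries (points), with mean and SD. The genotypes overlap in 7 genes; in Ppp3cb, at 2.94 ± 1.41 CPM in Prr14-KO and 0.862 ± 0.424 in Prr14-WT libraries and below the filter on low counts, they do not.

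Among the NFAT genes, which encode the calcineurin-dependent transcription factors, Nfatc2 carried the most of the mark and did not differ detectably. Nfatc2, which in mouse muscle is known for its part in fibre growth, had gene sums of 325, 342 and 323 counts in Prr14-KO replicates 4, 5 and 7, and 373, 327 and 315 in Prr14-WT replicates 3, 4 and 8. The genotypes overlapped, at 74.4 ± 3.38 CPM in Prr14-KO and 73.1 ± 6.44 in Prr14-WT libraries. The log2 change was 0.02 (SE 0.12, 95% interval -0.21 to 0.26, edgeR adjusted p = 1.00). That interval is the narrowest of the 7 tested genes and leaves out changes of 1.5-fold in either direction. Of these sums, 225, 183 and 167 counts in Prr14-KO and 208, 193 and 156 in Prr14-WT came from 6 regions outside the gene.

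Single regions of Nfatc2 went in both directions. All 14 were tested and 1 had an unadjusted p under 0.05, where 3.84% of all tested regions had one. That was an intron region at chr2:168481657-168482270. It held 10, 14 and 8 counts in the Prr14-KO libraries, and 34, 13 and 26 in the Prr14-WT libraries, in the replicate order used above, which is kept below. Only Prr14-WT replicate 4 lay among the Prr14-KO values, and the log2 change was -1.10 (SE 0.49, edgeR adjusted p = 0.998). Another intron region, at chr2:168531552-168531871, had 8, 10 and 10 counts in Prr14-KO and 20, 22 and 11 in Prr14-WT libraries (log2 change -0.83, SE 0.56). There all Prr14-KO libraries were lower. An intergenic region 21374 bp outside the gene, at chr2:168623031-168623359, also had all Prr14-KO libraries lower, at 10, 14 and 12 counts in Prr14-KO and 17, 32 and 19 in Prr14-WT (log2 change -0.83, SE 0.48).

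Near the inner start of Nfatc2 the values leaned the other way. The region over the window printed above, chr2:168590213-168590599, had 3, 17 and 27 counts in Prr14-KO and 5, 14 and 9 in Prr14-WT libraries. The groups overlapped, with Prr14-KO replicate 4 the lowest of the 6 (log2 change 0.83, SE 0.58, edgeR adjusted p = 0.998). The 5′ untranslated exon region at chr2:168570741-168571492 had 28, 37 and 46 counts in Prr14-KO and 33, 24 and 36 in Prr14-WT (log2 change 0.34, SE 0.32). The strongest Nfatc2 region, at chr2:168440735-168441443, is annotated as intergenic and overlaps the RefSeq gene model Gm33413. It had 85, 51 and 42 counts in Prr14-KO and 63, 61 and 33 in Prr14-WT. Its spread within each genotype exceeded the difference between them (log2 change 0.25, SE 0.25).

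Nfatc4 showed the largest gene-sum difference among the tested members, from a single region. Nfatc4 encodes the NFAT family member also called NFAT3, known in mice for its part in heart growth. The region at chr14:55828074-55828686 lies inside the gene, 3.585 kb from the RefSeq start, and was annotated to the start-site class by the authors. It held 10, 35 and 31 counts in Prr14-KO libraries, and 15, 7 and 15 in Prr14-WT libraries. Prr14-KO replicates 5 and 7 were above every Prr14-WT library, while Prr14-KO replicate 4 lay between them. The level was 6.31 ± 3.49 CPM in Prr14-KO and 2.86 ± 1.05 in Prr14-WT, or 1.13 higher on the log2 scale (SE 0.46, adjusted p = 0.998 by edgeR). As a gene sum the change was 1.10 (SE 0.55, edgeR adjusted p = 1.00). Without Prr14-KO replicate 4 the gene-sum change was 1.48 (edgeR adjusted p = 0.358), and without Prr14-KO replicate 5 it was 0.79 (adjusted p = 1.00).

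Nfatc1, the NFAT gene best known for the slow fibre programme, carried little of the mark, and none of its 3 regions passed the filter on low counts. As a gene sum it had 12, 36 and 18 counts in Prr14-KO and 15, 22 and 45 in Prr14-WT libraries. The groups overlapped widely, at 4.99 ± 2.89 CPM in Prr14-KO and 5.90 ± 3.35 in Prr14-WT (log2 change -0.24, SE 0.46, 95% interval -1.16 to 0.67, edgeR adjusted p = 1.00). The region assigned to Nfatc3, an NFAT gene known from work on mouse myoblasts, had 42, 40 and 55 counts in Prr14-KO and 31, 43 and 45 in Prr14-WT (log2 change 0.28, SE 0.28, edgeR adjusted p = 0.998). As said above, that region lies in Dus2.

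Of the calcineurin genes, Ppp3ca had a higher sum in Prr14-KO libraries inside the gene and a lower one outside it, neither past the threshold, and its total did not differ detectably. Ppp3ca encodes the alpha isoform of the catalytic subunit. Over its 13 regions the sums were 184, 170 and 201 counts in Prr14-KO and 203, 158 and 180 in Prr14-WT libraries, overlapping throughout (41.7 ± 3.70 CPM in Prr14-KO and 39.0 ± 4.52 in Prr14-WT; log2 change 0.10, SE 0.16, edgeR adjusted p = 1.00). The 5 regions inside the RefSeq span (chromosome 3, 136669714 to 136937727) summed to 85, 61 and 114 counts in Prr14-KO, against 71, 35 and 67 in Prr14-WT. Prr14-KO replicates 4 and 7 were above all Prr14-WT libraries, and replicate 5 was below Prr14-WT replicates 3 and 8. The 8 regions outside the span summed to 99, 109 and 87 counts in Prr14-KO, against 132, 123 and 113 in Prr14-WT. By raw counts each Prr14-KO library was lower there, though after scaling the groups overlapped (24.1 ± 2.98 CPM in Prr14-KO and 28.5 ± 1.75 in Prr14-WT). All 8 are intergenic, and as a class sum their log2 change was -0.26 (SE 0.20, adjusted p = 0.999 by edgeR). The lower sum came from 3 of the 8 regions, while the other 5 had higher means in Prr14-KO libraries.

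Within gene spans, 0 of the 6 members tested passed, where 0.022% of 18207 spans did. Ppp3ca (log2 change 0.64, SE 0.24, edgeR adjusted p = 1.00) and Nfatc4 (1.08, SE 0.50, adjusted p = 1.00) were the 2 with an unadjusted p under 0.05, at 0.00892 and 0.0324, where 4.16% of all spans had one. In 0 of the 6 were the genotypes fully apart, where 9.29% of all spans were. The Ppp3ca value was 0.40 without Prr14-KO replicate 7 and 0.39 without Prr14-WT replicate 4, and with the span extended by 10 kb on both sides it was 0.28. The other spans were at -0.09 (Nfatc2), -0.14 (Nfatc1), -0.21 (Rcan1) and 0.28 (Camk2d). On simulated libraries, 2-fold changes were found at 37.3% of altered spans.

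The count inside a gene over the count outside it is free of library scaling, and was compared after the values above had been seen. For Ppp3ca it was 0.859, 0.560 and 1.31 in Prr14-KO and 0.538, 0.285 and 0.593 in Prr14-WT libraries. The groups overlapped only through Prr14-KO replicate 5, and the log2 difference was 0.93 (two-sided exact permutation p = 0.20, 0.80 after adjustment over the 4 genes compared; 3 against 3 cannot give less than 0.10). The same difference was 0.34 for Camk2d, -0.16 for Rcan1 and -0.21 for Nfatc2 (exact permutation p from 0.50 to 0.80).

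Single Ppp3ca regions carried 4 of the members' 7 unadjusted p under 0.05, from 8 tested, where 3.84% of all tested regions had one. The intron region at chr3:136830542-136830948 had 23, 14 and 35 counts in Prr14-KO and 16, 9 and 13 in Prr14-WT (log2 change 0.99, SE 0.47). Only Prr14-WT replicate 3 reached into the Prr14-KO range. Beyond the 3′ end of the gene, the region at chr3:136971395-136971554 had 12, 20 and 10 counts in Prr14-KO and 4, 7 and 4 in Prr14-WT, all Prr14-KO libraries being higher (1.54, SE 0.75). Closer to that end, the region at chr3:136941785-136942544 had all Prr14-KO libraries lower, at 15, 22 and 13 counts, against 26, 32 and 34 in Prr14-WT (-0.80, SE 0.40). Upstream, the region at chr3:136535843-136536494 had 14, 30 and 18 counts in Prr14-KO and 40, 40 and 29 in Prr14-WT (-0.73, SE 0.36). The edgeR adjusted p was 0.998 for each of the 4.

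Ppp3cb, the gene of the beta catalytic isoform, had 1 region, at chr14:20546027-20546314, inside the gene near its start and also inside the RefSeq gene model 1810062O18Rik. It held 10, 9 and 20 counts in Prr14-KO and 4, 2 and 6 in Prr14-WT libraries, so every Prr14-KO library was higher, with Prr14-KO replicate 7 the highest of the 6. The filter on low counts removed it. When every region with any count was tested, it stood at 1.75 on the log2 scale (SE 0.80, adjusted p = 0.978 by edgeR). A difference was not detectable at this depth.

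Across the 5 regions within 1 kb of a start site, 4 had higher means in Prr14-KO libraries and the Camk2d region did not. At the start of Ppp3ca, chr3:136669603-136670336, the counts were 22, 20 and 35 in Prr14-KO and 20, 13 and 14 in Prr14-WT. After scaling all Prr14-KO libraries lay above all Prr14-WT libraries, at 6.32 ± 2.13 CPM in Prr14-KO and 3.63 ± 0.798 in Prr14-WT (log2 change 0.79, SE 0.43, edgeR adjusted p = 0.998). At the start of Camk2d, chr3:126597209-126597464, there were 4, 9 and 10 counts in Prr14-KO and 7, 2 and 22 in Prr14-WT, which overlapped. Over all 5856 tested regions of this class the median log2 change was 0.08, and 57.3% were above 0, whereas the median over all regions was 0.00. The members' 3 tested start-site regions stood at 0.79 (Ppp3ca), 0.83 (Nfatc2) and 1.13 (Nfatc4). The Nfatc2 value was 0.18 without Prr14-KO replicate 7, 0.52 without Prr14-WT replicate 3, 1.33 without Prr14-KO replicate 4, 1.249 without Prr14-WT replicate 4 and 0.40 by limma-voom. The Ppp3ca value was 0.49 without Prr14-KO replicate 7. The library shares of this class, given above, overlapped between genotypes, and their part in these values was not tested. At the gene and class level 0 of the members' 15 tested sums passed, where 0.0443% of 29316 did, and 2 had an unadjusted p under 0.05 (Nfatc4 start-site and Ppp3ca intron sums), where 3.81% of all had one.

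**Figure D3:**
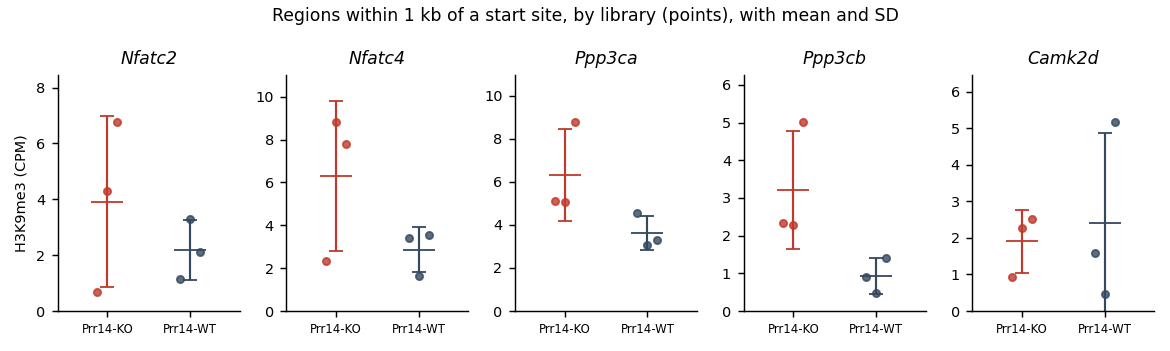
H3K9me3 at the 5 member regions annotated within 1 kb of a start site, in CPM (y axis, from 0), in 3 Prr14-KO and 3 Prr14-WT libraries (points), with mean and SD. The genotypes do not overlap at Ppp3ca (6.32 ± 2.13 in Prr14-KO and 3.63 ± 0.798 in Prr14-WT) and Ppp3cb, and overlap at Nfatc2, Nfatc4 and Camk2d. Of all tested regions, which leave out the Ppp3cb and Camk2d regions shown, 9.61% had genotypes that did not overlap.

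Rcan1 encodes a small protein that binds and restrains calcineurin and is itself a known target of NFAT through an inner promoter. Its 12 regions were spread over the gene and its flanks, with sums of 92, 115 and 141 counts in Prr14-KO and 123, 137 and 149 in Prr14-WT libraries. The groups overlapped, at 26.2 ± 5.98 CPM in Prr14-KO and 29.5 ± 2.80 in Prr14-WT (log2 change -0.17, SE 0.19, 95% interval -0.54 to 0.20, edgeR adjusted p = 1.00). By class, its introns stood at -0.34 (SE 0.26), its intergenic regions at -0.33 (SE 0.35) and its regions 2 to 3 kb from a start site at 0.28 (SE 0.35).

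Of 6 tested Rcan1 regions, 1 had an unadjusted p under 0.05, where 3.84% of all tested regions had one. It lay beyond the 3′ end at chr16:92381078-92381368. That region is annotated as intergenic and overlaps the RefSeq gene model Gm29805. It held 8, 6 and 15 counts in Prr14-KO and 18, 34 and 13 in Prr14-WT. Prr14-KO replicate 7 lay above Prr14-WT replicate 8, so the groups overlapped (log2 change -1.08, SE 0.52, edgeR adjusted p = 0.998). The strongest Rcan1 region, in an intron at chr16:92417845-92418220, had 7, 14 and 21 counts in Prr14-KO and 15, 29 and 29 in Prr14-WT (-0.71, SE 0.45). The 4 regions 2 to 3 kb from start sites each held between 1 and 22 counts per library, and all overlapped between genotypes.

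Camk2d had its strongest region upstream of the gene. That region, at chr3:126508971-126509981 and 85506 bp outside the gene, was the strongest of all 53. It is annotated as intergenic and overlaps the RefSeq gene model Gm46823. It had 79, 76 and 77 counts in Prr14-KO and 90, 77 and 97 in Prr14-WT libraries. The level was 19.0 ± 0.490 CPM in Prr14-KO and 20.5 ± 2.34 in Prr14-WT, overlapping, and the change was -0.11 on the log2 scale (SE 0.22, adjusted p = 0.998 by edgeR). Inside the gene the 5 regions summed to 25, 37 and 77 counts in Prr14-KO and 39, 32 and 47 in Prr14-WT. Prr14-KO replicate 7 was the highest of the 6 and Prr14-KO replicate 4 the lowest. The whole gene sum was 120, 127 and 190 counts in Prr14-KO and 153, 135 and 185 in Prr14-WT (log2 change -0.05, SE 0.18, edgeR adjusted p = 1.00). For 4 of the 8 genes (Camk2d, Rcan1, Nfatc3 and Ppp3cb) the highest gene sum of each genotype was in Prr14-KO replicate 7 and Prr14-WT replicate 8, the libraries with the highest start-site and mitochondrial shares. How often this holds over all genes was not counted, and the part of those shares was not tested. The Nfatc3 sum is from the region in Dus2, and the Ppp3cb sums hold only 2 to 20 counts per library.

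**Figure D4:**
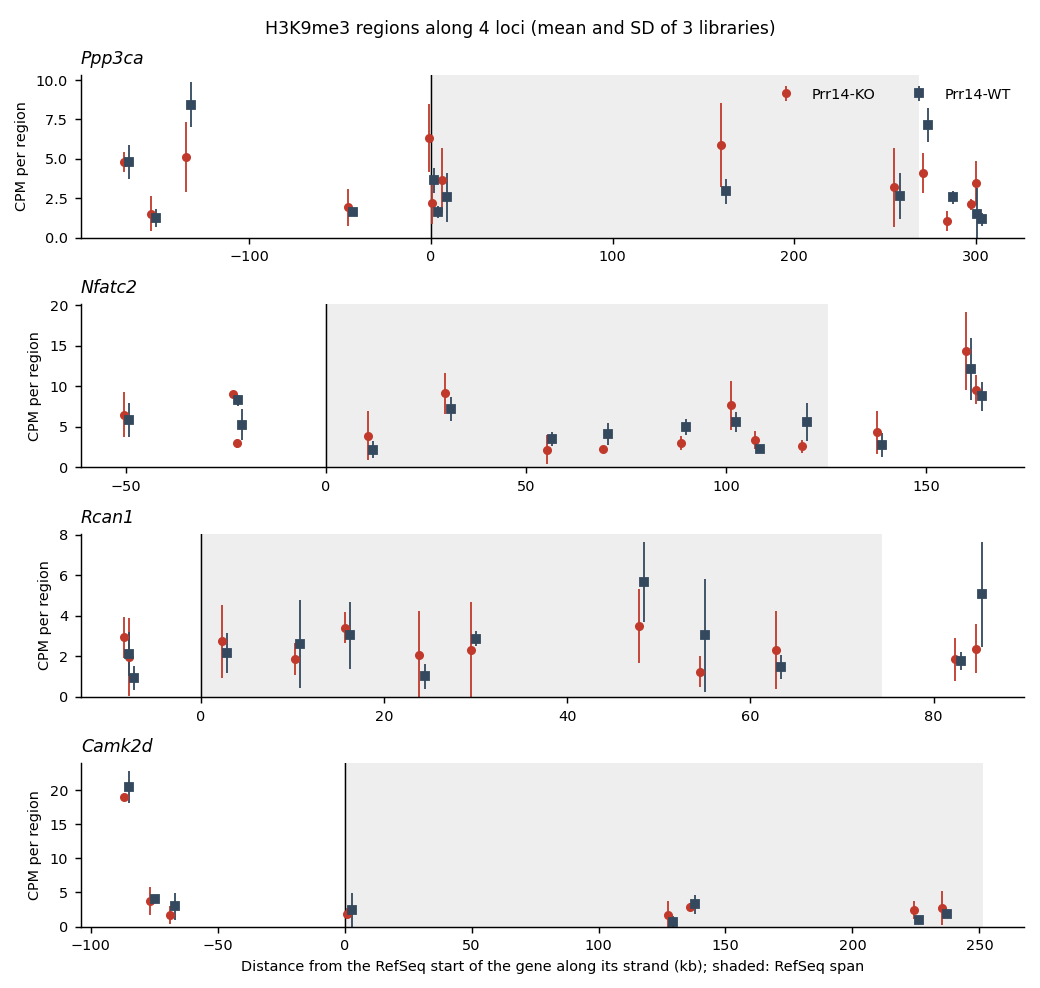
Mean H3K9me3 per region in CPM (y axis, from 0), with SD over 3 libraries, for Prr14-KO (circles) and Prr14-WT (squares), by distance in kb from the RefSeq start of Ppp3ca, Nfatc2, Rcan1 and Camk2d along the gene (x axis); the shaded part is the RefSeq span and the pairs are shifted slightly for legibility. Most pairs overlap within their SDs, and the strongest region stands before the Camk2d gene, at 19.0 ± 0.490 CPM in Prr14-KO and 20.5 ± 2.34 in Prr14-WT libraries.

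Over single regions, 33 of the 53 (62.3%, against 75.9% of all regions) passed the filter on low counts, so the counts below cover these 33. None passed the test, where 0.013% of 153789 regions did. Of the 33, 7 (21.2%) had an unadjusted p under 0.05, 3 higher and 4 lower in Prr14-KO libraries, where 3.84% of all regions had one. The genotypes were fully apart in 7 of the 33 (21.2%), 3 higher and 4 lower, where 9.61% of all tested regions were. Regions of 1 gene share a locus and are not independent, and 4 of the 7 with a low p were in Ppp3ca. Fewer of the 7 had a low p when 1 library was left out. With fewer libraries a low p is also harder to reach, so this cannot tell whether the 7 rest on single libraries. Of these same 7 regions, 2, 4 and 2 still had an unadjusted p under 0.05 without Prr14-KO replicates 4, 5 and 7, and 4, 2 and 3 without Prr14-WT replicates 3, 4 and 8. By limma-voom 2 of the 7 did. The authors' deposited table likewise gives no member region an adjusted p under 0.05, with 37 of the 53 given one and the lowest at 1.00. On simulated libraries, 2-fold changes were found at 4.48% of altered regions and 4-fold changes at 54.5%, so a 2-fold difference at 1 region was mostly not detectable at this depth.

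**Figure D5:**
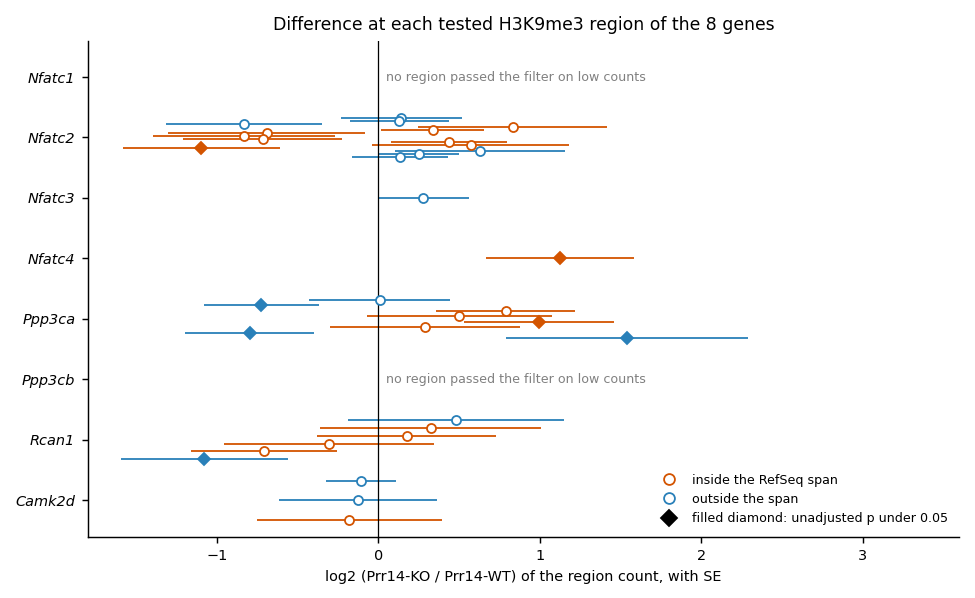
Log2 change, Prr14-KO over Prr14-WT, with SE (x axis) for the 33 tested regions of the 8 genes (rows), ordered within a row along the gene, coloured by position inside or outside the RefSeq span. The 7 filled diamonds have an unadjusted p under 0.05, where 3.84% of all tested regions have one, and 4 of them belong to Ppp3ca. Values run from -1.10 to 1.54 and no region passed after adjustment.

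The other genes of the pathway were listed with the members. Of 64 genes in 6 lists, 56 had a region and 50 were tested as gene sums. In either direction 0 passed, where 0.0393% of 15265 genes did. Of the 50, 2 had an unadjusted p under 0.05, where 3.58% of all genes had one. The genotypes were fully apart in 2 of the 50 (Dyrk1b and Calm3), where 8.5% of all genes were. Over the 50 the median log2 change was 0.03, with 30 above and 20 below 0. Of the NFAT family all 5 were tested (median 0.18); Nfat5, the member that answers to osmotic stress rather than calcineurin, had a log2 change of 0.18 (SE 0.25). Of the calcineurin subunit genes 3 of 5 were tested (median 0.10), among them the regulatory subunit gene Ppp3r1 (0.09, SE 0.18). The modulators had 9 of 14 tested (median -0.00). In that list Cabin1, a calcineurin inhibitor, had the smallest p (1.02, SE 0.60, edgeR adjusted p = 1.00), while Lmcd1, with the most regions at 30, stood at -0.00 (SE 0.10).

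Among the kinases that return NFAT to the cytoplasm, 6 of 8 genes were tested (median 0.01). Dyrk1b had 45, 51 and 57 counts in Prr14-KO and 30, 33 and 44 in Prr14-WT libraries. All Prr14-KO libraries were higher (log2 change 0.58, SE 0.31, edgeR adjusted p = 1.00), and Dyrk2, with 27 regions, was at -0.02 (SE 0.10). Of the CaM kinase and calmodulin genes 10 of 13 were tested (median 0.00). The calmodulin gene Calm3 had 16, 17 and 19 counts in Prr14-KO and 8, 6 and 4 in Prr14-WT, from 1 region. All Prr14-KO libraries were higher, but it did not pass either (1.57, SE 0.68, edgeR adjusted p = 1.00). Camk1g, with 46 regions, was at -0.05 (SE 0.09). Of the calcium entry, store and buffering genes 17 of 19 were tested (median 0.02). Stim2, a sensor of store calcium with 183 regions and the most marked of all listed genes, stood at 736 ± 22.1 CPM in Prr14-KO and 737 ± 19.6 in Prr14-WT (log2 change -0.00, SE 0.07), and Homer2, with the smallest p of its list, at -0.21 (SE 0.16).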

How the data were processed

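H3K9me3 CUT&Tag of quadriceps femoris was analysed from 1 deposited table of regions shared by 6 libraries, 3 Prr14-KO and 3 Prr14-WT, grouped by the genotype label. Tools in the submitters' processing notes are DESeq2 1.6.3, bedtools, deepTools, MACS2, BWA and Trimmomatic, with GRCm38 as build; their settings, and whether regions were called on pooled libraries, are not given in the sources used here, nor is whether positions count from 0 or 1. Per the file headers, the deposited columns are raw counts per region and library, a normalised signal (the count over a single factor per library; not used), the authors' log2 fold change (Prr14-KO over Prr14-WT), p-value and adjusted p-value, a score of no stated meaning, and the distance to a start site. The authors' gene symbols and classes were used as deposited, and 0 columns of per-sample values were left unmapped.

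The test was edgeR 4.0.16 (R 4.3.3) on the counts of all features of each level: filterByExpr (minimum count 10, minimum total 15), TMM scaling, a robust quasi-likelihood fit, and Benjamini-Hochberg adjusted p-values over all features, threshold 0.05. CPM are TMM-scaled counts per 1000000, except the levels per kb of gene and the mean bin levels, which use library totals. Levels were regions, gene sums, gene and class sums, sums over RefSeq spans (GRCm38.p6, any overlap) and 1 Mb bins by region midpoint. No spike-in is named, so a change shared by all regions is scaled away. The fits were tested on simulated data with 200 changed features. A ratio inside and outside genes was compared by an exact permutation test (SciPy 1.17.1) over 20 arrangements. Alternatives were RLE factors, library totals, DESeq2 1.42.0, limma-voom (limma 3.58.1), other filters and a threshold of 0.10, other region sets, spans and bins, and each library left out.

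The members, lists and tests were chosen with earlier results of these data known. Named regions of each member were the 3 with the smallest p, the strongest, and those at start sites or in untranslated exons. The Ppp3ca region at 136941785, the Nfatc3 region's neighbour, Ppp3r1, Nfat5 and the inside and outside sums were named after their values were seen.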

Additional observations from a re-analysis of the deposited data

How the results depend on the processing

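No member passed the threshold at any level under any alternative run, the lowest adjusted p being 0.358 (Nfatc4 gene sum without Prr14-KO replicate 4). Of 749 log2 changes over the alternative runs 705 kept their direction. These include the runs at a threshold of 0.10, which repeat the main fit and could not change. Of 59 distinct results, 34 kept their direction in every run. Direction changed for gene sums without intergenic regions at Nfatc2 (-0.081) and Camk2d (0.26), and for 500 kb bins at Nfatc3 (-0.12), Nfatc4 (0.11), Ppp3ca (0.10) and Camk2d (-0.092); those alternatives count other regions. With 1 library left out, values that crossed 0 ran as follows. Gene sums: Nfatc1 -0.81 to 0.30, Camk2d -0.30 to 0.080, Nfatc2 -0.037 to 0.094. Spans: Nfatc1 -0.51 to 0.19, Nfatc2 -0.21 to 0.081, Rcan1 -0.46 to 0.0059, Camk2d -0.28 to 0.57. Bins: Nfatc3 -0.036 to 0.058, Nfatc4 -0.057 to 0.045, Ppp3ca -0.083 to 0.040, Rcan1 -0.096 to 0.00070, Nfatc1 -0.037 to 0.033, Nfatc2 -0.059 to 0.0092. Class sums: Nfatc1 introns -0.50 to 0.23, Nfatc2 intergenic -0.084 to 0.25, Rcan1 regions 2 to 3 kb from a start -0.20 to 0.55, Camk2d introns -0.18 to 0.77. Regions: Nfatc2 at 168440735 -0.061 to 0.43, Camk2d at 126519527 -0.62 to 0.17 and at 126732393 -0.45 to 0.14, Rcan1 at 92463395 -0.24 to 0.74. Inside to outside ratios: Nfatc2 -0.41 to 0.13, Rcan1 -0.53 to 0.22, Camk2d -0.0082 to 0.68. The count of member regions with an unadjusted p under 0.05 was 7 of 33 in the main fit. It was also 7 with RLE factors and with library totals, 6 by DESeq2 and 8 of 53 with any count. By limma-voom it was 2, with a mean of 20 counts 2 of only 12 tested, and with 1 library left out 2 to 6. The member share was 21.2% against 3.84% of all regions in the main fit, and 6.06% against 2.76% by limma-voom. With a mean of 20 counts it was 16.7% against 4.20%, and without Prr14-WT replicate 4, the lowest, 5.26% against 3.70%. Over all features, limma-voom called 13 regions against 20, spans extended by 10 kb 9 against 4, DESeq2 4 and 500 kb bins 7 against 2 bins; with 1 library left out, gene sums called ran from 6 to 18 (6 in all libraries), spans from 4 to 11 and bins from 2 to 6, each highest without Prr14-KO replicate 4. Except as stated, the cause was not tested. No paired analysis was possible because the genotypes share only replicate number 4. Depth limits the report most at Nfatc1, Nfatc4 and Ppp3cb, whose regions hold few counts.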

Other observations

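Of the 64 genes listed for the pathway, 8 had no region of the deposited table assigned to them: the third calcineurin catalytic gene Ppp3cc, the calsarcin gene Myoz1, Fhl1, the NFAT kinase genes Gsk3a and Csnk1d, the kinase genes Camk2a and Camkk1, and the calcium entry channel gene Orai1. A change of the mark there was not analysed.

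The gene sum most like each member over the 6 libraries, among 6414 genes with a mean of at least 100 counts, was Gsk3b for Nfatc2 (Pearson r = 0.988 on log2 CPM), Rps18-ps6 for Nfatc1 (0.992), Usp25 for Nfatc3 (0.993), Tmem14a for Nfatc4 (0.982), Arsj for Ppp3ca (0.992), Mro for Rcan1 (0.986) and Rap1gap for Camk2d (0.997). These values describe 6 points that share library depth and scaling, and each is the highest of all genes compared.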
